A study of Caenorhabditis elegans with 4 samples.

Results

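The regions described here are the 484 intervals on chromosome III at which NHR-76 tagged with green fluorescent protein (GFP) was called bound in Caenorhabditis elegans hermaphrodites at the third larval stage (L3). They were chosen by chromosome alone, as every feature on chromosome III of the combined peak list, with no threshold on strength, and they are 484 of 2714 regions on the 6 nuclear chromosomes. Chromatin immunoprecipitation and sequencing (ChIP-seq) was done with anti-GFP antibodies in 2 libraries, and 2 libraries of input chromatin carry the same replicate numbers. All 4 libraries came from strain OP203, kept at 20 °C, in which the mutation unc-119(ed3) is accompanied by the transgene wgIs203. That transgene expresses nhr-76 with a TY1, EGFP and FLAG tag together with a working unc-119 gene, was introduced by bombardment and, per the labels, follows the expression pattern of nhr-76. No strain without the tag is among the samples. A list exists for each ChIP library and for the combination, and the input libraries have no values of their own here. The libraries came from whole worms, so fewer bound cells and weaker binding per cell cannot be told apart.

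NHR-76 is a nuclear hormone receptor, a class of transcription factor that binds DNA through a zinc-finger domain and carries a ligand-binding domain. Nematodes have a greatly expanded family of such receptors. In C. elegans, nhr-76 is known to act in the intestine, where it is needed for the loss of stored fat that serotonin brings about and for the induction of the triglyceride lipase gene atgl-1 in that response. Of the genes that define the strain and this role, atgl-1 and unc-119 lie on chromosome III and nhr-76 lies on chromosome IV. The gene table at hand belongs to a later assembly than the peaks, which are on WormBase WS220. Regions are therefore given by WS220 position, no region is assigned to a gene, intron, exon or UTR, and no sequence is printed. Which regions, if any, lie at atgl-1 or at the unc-119 locus, of which the transgene carries a further copy, was not tested.

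The strength of a region is the authors' q-value, the false discovery rate attached by the peak caller, where a smaller value means a stronger call. In the replicate lists, each peak carries a score whose scale is not stated, and peaks are ranked by it here among all nuclear peaks (21114 in replicate 1 and 25332 in replicate 2), so that rank 1 is the strongest. Many peaks share the highest score, 3.06 in replicate 1 and 2.12 in replicate 2, and among these the rank follows the authors' peak numbers. Chromosome III held 94 peaks with the highest replicate 1 score and 8 with that of replicate 2. On this chromosome all 3030 replicate 1 peaks were 400 bp wide and all 3627 replicate 2 peaks were 800 bp wide. Read depth is unknown, since the lists hold no counts.

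The strongest region of chromosome III was III:7718240-7718753, 514 bp wide, with q = 4.99e-29. It ranked 7 in the whole combined list. Its replicate 1 peak had the highest score and rank 25, whereas its only replicate 2 peak had a score of 0.171 and rank 8662. The second, III:5442795-5443212 (418 bp, q = 3.41e-20), held the best ranked replicate 1 peak of the chromosome, at rank 5, with centres 22 bp apart. No replicate 2 peak touched it, and the nearest one ended 1041 bp away. The third, III:10758989-10759354 (366 bp, q = 7.10e-16), had rank 14 in replicate 1 and rank 6987 in replicate 2. The leading 3 regions thus carried the highest score of replicate 1, while in replicate 2 they met peaks somewhat above the median score of the chromosome's peaks, which was 0.111, or no peak.

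A few of the strong regions ranked high in both libraries. III:3867020-3867737 (718 bp, q = 3.91e-14) had rank 30 in replicate 1 and rank 329 in replicate 2, with a replicate 2 score of 1.10. III:13070103-13070880 (778 bp, q = 6.62e-11) had rank 10 in replicate 1 and rank 426 in replicate 2. III:10224462-10225356 (895 bp, q = 3.09e-15) went the other way, with rank 1667 in replicate 1 and 729 in replicate 2. Over the whole chromosome, 9 of the 127 regions found in both replicates lay within the first 1000 nuclear peaks of each. Besides III:3867020-3867737 and III:13070103-13070880, these included III:2785835-2786194 (360 bp, q = 2.17e-08) at rank 90 in replicate 1 and rank 61 in replicate 2. They also included III:3862905-3863340 (436 bp, q = 5.54e-06), at ranks 110 and 327. The weakest of the 9 by q-value was III:12583417-12583767 (351 bp, q = 0.00165), at ranks 386 and 118.

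Among the 20 regions of lowest q on the chromosome, which reached up to q = 1.88e-09, 18 overlapped a replicate 1 peak, 15 a replicate 2 peak and 14 both. Their widths ran from 321 to 1232 bp, with a median of 610.5 bp, and 14 carried the highest replicate 1 score. In 8 of the 20 the best replicate 2 partner lay beyond rank 5000 of its list. At III:8797206-8797730 (525 bp, q = 4.36e-12) the ranks were 126 and 17245. At III:835134-836145 (1012 bp, q = 2.22e-11) they were 2462 and 14787, and at III:1925005-1925582 (578 bp, q = 1.88e-09) they were 1587 and 6253. Better ranked replicate 2 partners were found at III:7854446-7854849 (404 bp, q = 1.11e-12, ranks 89 and 3425), where the replicate 1 centre lay 1 bp from the region's centre. III:4281910-4282644 (735 bp, q = 2.96e-12) had ranks 466 and 3167, III:12904755-12905379 (625 bp, q = 1.59e-11) had ranks 75 and 2110, and III:3456249-3456569 (321 bp, q = 9.48e-11) had ranks 8 and 1487. Every one of these regions ranked better in replicate 1 than in replicate 2.

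Of the 20, 4 overlapped replicate 1 alone. Besides III:5442795-5443212, these were III:11554097-11554826 (730 bp, q = 1.01e-13, rank 1044), III:12250112-12250707 (596 bp, q = 4.60e-11, rank 248) and III:349246-350290 (1045 bp, q = 3.65e-10, with the highest replicate 1 score). In the last of these a replicate 2 peak lay just outside, with its edge 57 bp away, and at III:12250112-12250707 the distance was 109 bp. The remaining pair had no replicate 1 peak at all, although their q-values were among the 14 lowest of the chromosome. III:312883-313263 (381 bp, q = 8.21e-13) met only a replicate 2 peak of rank 20656, and its nearest replicate 1 peak was 6761 bp away. III:931225-931789 (565 bp, q = 1.61e-11) met no peak in either replicate, and the nearest ones were 11125 bp away in replicate 1 and 15148 bp away in replicate 2. Both lie in the first 1 Mb of the chromosome. Of the 111 regions with q under 1e-10 on the other 5 chromosomes, 109 overlapped replicate 1, against 16 of 18 on chromosome III, a contrast chosen after the values were seen and not tested.

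**Figure D1:**
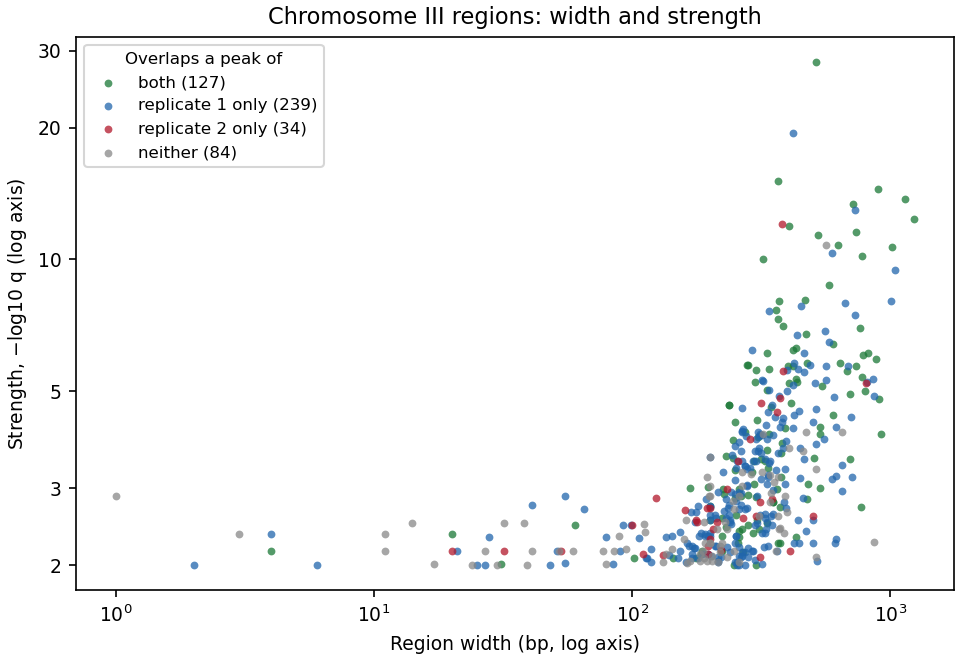
Width in bp (x axis, log scale) against strength as −log10 q (y axis, log scale) for the 484 chromosome III regions, 1 point each, coloured by which replicate lists they overlap. Regions under 50 bp all sit at the weak end, and the 5 regions of 1000 bp or more have q-values from 1.68e-14 to 9.36e-09.

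Stronger regions were wider. Across the 484 regions, Spearman's rho between width and −log10 q was 0.69, against 0.71 over the regions of the other 5 chromosomes; both describe regions that are not independent, and the width and the q-value come from the same peak call. The median width was 280 bp (quartiles 200 and 385 bp), against 300 bp (206 and 425 bp) on the other chromosomes together. Singly their medians ran from 277 bp on chromosome IV to 385 bp on chromosome I. The widest region was III:13462839-13464070, of 1232 bp (q = 4.25e-13), and 217 bp separate it from the second widest, III:13464288-13465429, of 1142 bp (q = 1.68e-14). Both overlapped highest-scoring replicate 1 peaks, at ranks 260 and 207, and both met the same replicate 2 peak, of rank 16849. The other regions of 1000 bp or more were III:349246-350290, III:835134-836145 and III:12598328-12599328 (1001 bp, q = 9.36e-09, replicate 1 rank 1412, no replicate 2 peak). Together these 5 make up 1.03% of the chromosome's regions, and on the other chromosomes together regions of this width were 1.79%. Singly that share ran from 1.12% on chromosome IV to 6.45% on chromosome I.

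At the other end, 27 regions (5.58%) were under 50 bp wide, and none of them was stronger than q = 0.00133. The share under 50 bp was 3.86% over the other 5 chromosomes together. Singly it ran from 1.32% on the X chromosome to 5.61% on chromosome IV, and these differences were not tested. The narrowest was 1 bp wide, at III:999909-999909, with q = 0.00133 and no peak in either replicate. The next were III:3989085-3989086, 2 bp wide (q = 0.00993, replicate 1 rank 9875), and III:3215492-3215494, 3 bp wide (q = 0.00436, neither replicate). Of the 27 narrow regions, 12 (44.4%) overlapped replicate 1 and 5 (18.5%) overlapped replicate 2, whereas of the 105 regions from 400 to 999 bp wide, 94 (89.5%) and 47 (44.8%) did. A wider region has more room to meet a peak, so width and strength cannot be told apart in these shares. The weakest region of the chromosome, III:11526725-11526730 (6 bp), had q = 0.0099987, which was also the highest q-value of the whole list, so the list ends just below 0.01. Just above it stood III:3773283-3773555 (273 bp, q = 0.00999), which overlapped a replicate 1 peak of rank 716, and III:1732484-1732513 (30 bp, q = 0.00999), which overlapped none.

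How far the members met peaks of the single libraries was asked by overlap of at least 1 bp. The combined list is of the same ChIP libraries, so such overlap is not recovery in independent data. Replicate 1 peaks overlapped 366 of the 484 regions (75.6%, with an exact 95% interval from 71.5 to 79.4), against 73.7% of the whole combined list. Replicate 2 peaks overlapped 161 regions (33.3%, interval 29.1 to 37.7), against 34.5% of the whole list. Both replicates held 127 (26.2%, interval 22.4 to 30.4), against 27.3% of the list. Replicate 1 alone held 239 and replicate 2 alone held 34. Neither held 84 regions (17.4%, interval 14.1 to 21.03), against 19.1% of the list. For scale, replicate 1 peaks covered 8.51% of the span of chromosome III and replicate 2 peaks covered 16.9%. The centres of 68.4% of the regions lay inside a replicate 1 peak, and 27.1% lay inside a replicate 2 peak. Intervals cover counting error only.

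By these measures no difference between chromosome III and the other 5 chromosomes was detected. The share in replicate 1 was 2.35 percentage points higher on chromosome III (95% interval of the difference -2.05 to 6.42; two-sided Fisher's exact test, adjusted p = 0.707 over 7 comparisons). The share in replicate 2 differed by -1.53 points (interval -6.05 to 3.20), the share in both by -1.34 points (interval -5.51 to 3.14) and the share in neither by -2.15 points (interval -5.70 to 1.81), each with an adjusted p of 0.707 by Fisher's exact test. Regions with q under 1e-05 numbered 80 of 484 (16.5%), against 17.4% of the whole list, and the difference from the other chromosomes was -1.005 points (interval -4.46 to 2.88; Fisher's exact test, adjusted p = 0.707). These tests count regions that lie close together as independent. The intervals still allow differences of several percentage points in either direction.

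**Figure D2:**
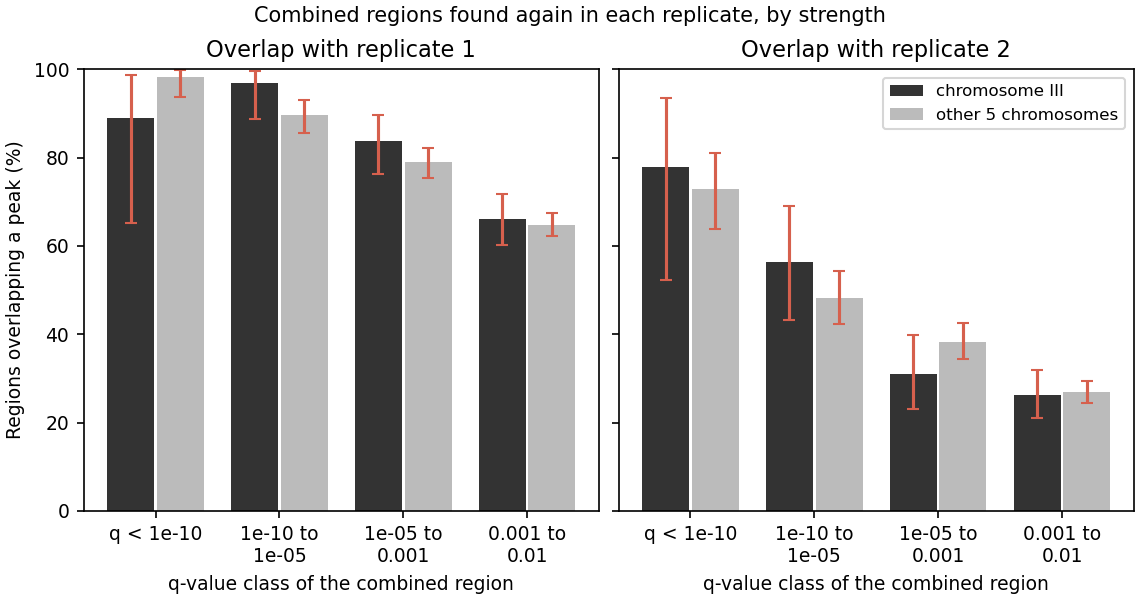
Share of combined regions that overlap a replicate 1 peak (left) or a replicate 2 peak (right), in % on the y axis, by q-value class on the x axis, for chromosome III (dark, 18, 62, 129 and 275 regions) and the other 5 chromosomes (light). Error bars are exact 95% intervals. On chromosome III the replicate 2 share goes from 77.8% in the strongest class to 26.2% in the weakest, while the median width falls from 610.5 to 215 bp.

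Support in the replicates was mostly higher in stronger classes on chromosome III, as it was on the other 5 chromosomes. Of the 18 regions with q under 1e-10, 16 (88.9%, interval 65.3 to 98.6) overlapped replicate 1. Replicate 2 overlapped 14 of them (77.8%, interval 52.4 to 93.6). From 1e-10 to 1e-05 the numbers were 60 (96.8%) and 35 (56.5%) of 62 regions. For replicate 1 this share was above that of the strongest class, unlike on the other 5 chromosomes, a contrast that was not tested. From 1e-05 to 0.001 they were 108 (83.7%) and 40 (31.0%) of 129. The weakest class, from 0.001 to 0.01, held 275 regions, more than all the others together, of which 182 (66.2%) and 72 (26.2%) overlapped the replicates. On the other 5 chromosomes the shares in the same classes, from strongest to weakest, were 98.2%, 89.6%, 78.9% and 64.8% for replicate 1 and 73.0%, 48.2%, 38.3% and 26.8% for replicate 2. Median width on chromosome III fell from 610.5 bp in the strongest class through 456 and 333 bp to 215 bp in the weakest. A wider region has more room to meet a peak, so strength and width cannot be told apart in these shares. Replicate 2 peaks covered 16.9% of the span of chromosome III. A region can touch a peak by 1 bp more easily than a single position can lie in one. The 26.2% and the 16.9% are therefore not like measures. Among the regions found in a replicate, Spearman's rho between −log10 q and the best score of an overlapping peak was 0.40 for replicate 1 (366 regions) and 0.10 for replicate 2 (161 regions). On the other 5 chromosomes it was 0.41 over 1634 regions and 0.19 over 776.

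The groups by support differed in strength and width as follows. The 127 regions in both replicates had a median q of 0.000157 and a median width of 340 bp. The 239 in replicate 1 alone had medians of 0.00181 and 279 bp. The 34 in replicate 2 alone had medians of 0.00264 and 216.5 bp, and the 84 in neither had medians of 0.00434 and 200 bp. On the other 5 chromosomes the median widths of these groups, in the same order, were 369, 302, 278 and 222 bp. The overlap rule by itself favours wider regions. The strongest members with replicate 2 alone, after III:312883-313263, were III:7272720-7273101 (382 bp, q = 2.77e-06, rank 1976), which missed a replicate 1 peak by 60 bp, and III:4193620-4194420 (801 bp, q = 6.17e-06, rank 13808), which missed one by 306 bp. After III:931225-931789, the strongest in neither were III:5013792-5014263 (472 bp, q = 9.22e-05), which lay 34 bp from a replicate 2 peak, and III:6303062-6303711 (650 bp, q = 9.23e-05), which lay 14 bp from a replicate 1 peak. Of the 84 regions in neither, 43 had a replicate 1 peak within 1000 bp and 24 had no peak of either list that near. These distances were not counted on the other chromosomes.

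**Figure D3:**
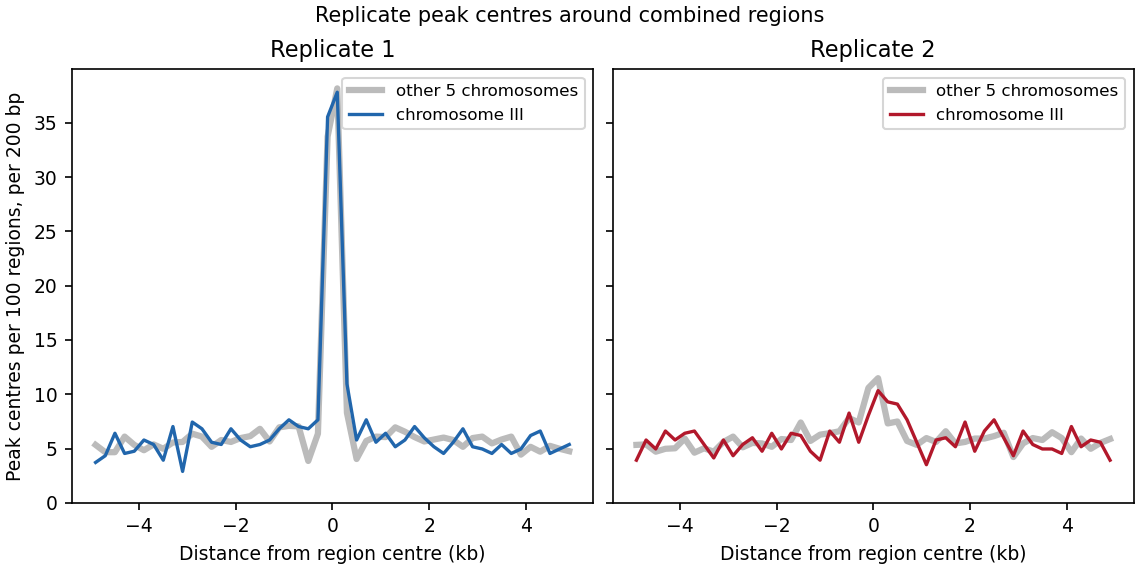
Number of replicate peak centres per 100 combined regions in each 200 bp step (y axis) by distance from the region's centre in kb (x axis), for replicate 1 (left) and replicate 2 (right), on chromosome III (coloured) and the other 5 chromosomes (grey). The central rise is 6.87 times the flanks in replicate 1 and 1.67 times in replicate 2 on chromosome III.

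The distance from the regions to the replicate peaks was measured as well. Within 200 bp of the centres of the 484 regions there were 355 replicate 1 peak centres, or 36.7 per 100 regions in each 200 bp step. At distances from 2 to 5 kb the mean was 5.34 per 100 regions and step, with single steps from 2.89 to 7.44. The centre was thus 6.87 times as dense as the flanks, against 6.61 times on the other 5 chromosomes. For replicate 2 there were 89 centres within 200 bp, or 9.19 per 100 regions and step, against 5.52 in the flanks, where single steps ran from 3.93 to 7.64. This gave 1.67 times the flanks, and 2.02 times on the other 5 chromosomes, a difference that was not tested. Where a region overlapped replicate 1, the nearest peak centre lay a median of 57 bp from the region's centre, and in 265 of 366 (72.4%) it was within 100 bp. For replicate 2 the median was 183 bp, and 56 of 161 (34.8%) were within 100 bp. On the other 5 chromosomes the values were 57.75 bp and 71.8% for replicate 1, and 154.5 bp and 37.4% for replicate 2, without a test. Replicate 2 peaks are wider, which allows overlap at greater distances.

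**Figure D4:**
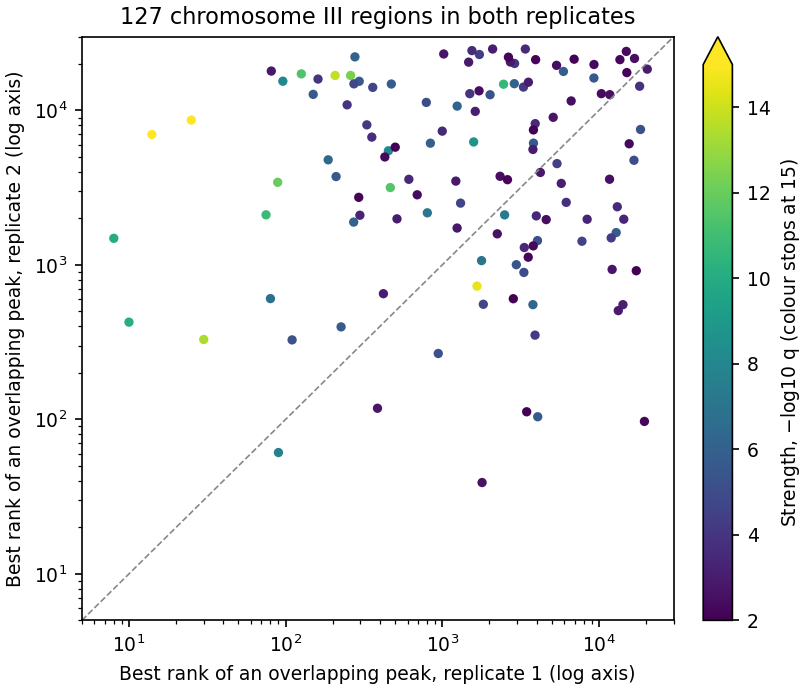
Best rank of an overlapping peak in replicate 1 (x axis) and in replicate 2 (y axis), both on log scales with rank 1 the strongest, for the 127 chromosome III regions in both lists, coloured by −log10 q. The dashed line marks equal ranks; 84 points lie above it, and the best replicate 2 ranks start at 39, those of replicate 1 at 8.

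In the 127 regions shared by both replicates, the best replicate 1 rank ran from 8 to 20369 with a median of 2245. The best replicate 2 rank ran from 39 to 24985 with a median of 4997. Ranks within the first 1000 were reached by 45 regions in replicate 1 and by 23 in replicate 2. The replicate 1 rank was the better one in 84 of 127, in lists of unequal length. Across these regions the scores of the replicates showed a Spearman's rho of 0.03, as a description over regions that are not independent. The best replicate 2 rank was at III:8794706-8794958 (253 bp), which had the highest replicate 2 score and rank 39, rank 1796 in replicate 1 and a q-value of only 0.00250. The third best in replicate 2, after III:2785835-2786194, was III:9507794-9508014 (221 bp), with rank 97 there, rank 19532 in replicate 1 and q = 0.00697. Strong replicate 2 peaks therefore fell on weak members as well as on strong ones.

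Seen from the replicate lists, 86 of the 94 chromosome III peaks with the highest replicate 1 score (91.5%, exact interval 83.9 to 96.3) overlapped a combined region. These peaks reach down to rank 537, and the order among them follows the authors' peak numbers. Within that order, 56 of 57 at ranks 1 to 300 overlapped a combined region, and 31 of 45 (68.9%) did so in the next class, up to rank 600, most of which is also tied. The share was 39 of 97 (40.2%) in the class up to rank 1200, and 111 of 1558 (7.12%) beyond rank 10000. The best ranked replicate 1 peaks outside the combined list, all with the highest score, were III:13388759-13389158 (rank 276), III:9047190-9047589 (rank 319) and III:8630716-8631115 (rank 436). The first overlapped a replicate 2 peak and the other two did not, and the nearest combined regions were 6844, 16587 and 19032 bp away. In replicate 2, 1 of the 8 chromosome III peaks with the highest score overlapped a combined region. There 7 of the 43 chromosome III peaks at ranks 1 to 300 (16.3%, exact interval 6.81 to 30.7) and 10 of 39 (25.6%) in the next class, up to rank 600, overlapped a combined region. The 5 best ranked replicate 2 peaks of the chromosome met no combined region. The first 3 were III:4120624-4121423 (rank 15), III:6958465-6959264 (rank 28) and III:8283701-8284500 (rank 31), each with the highest score of its list. They overlapped no replicate 1 peak either, and the nearest combined regions were 20357, 12565 and 15104 bp away. Over the full lists, 436 of 3030 replicate 1 peaks (14.4%) and 213 of 3627 replicate 2 peaks (5.87%) of chromosome III overlapped a member. All these shares of replicate peaks were counted on chromosome III alone. They do not tell whether it differs from the other chromosomes.

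**Figure D5:**
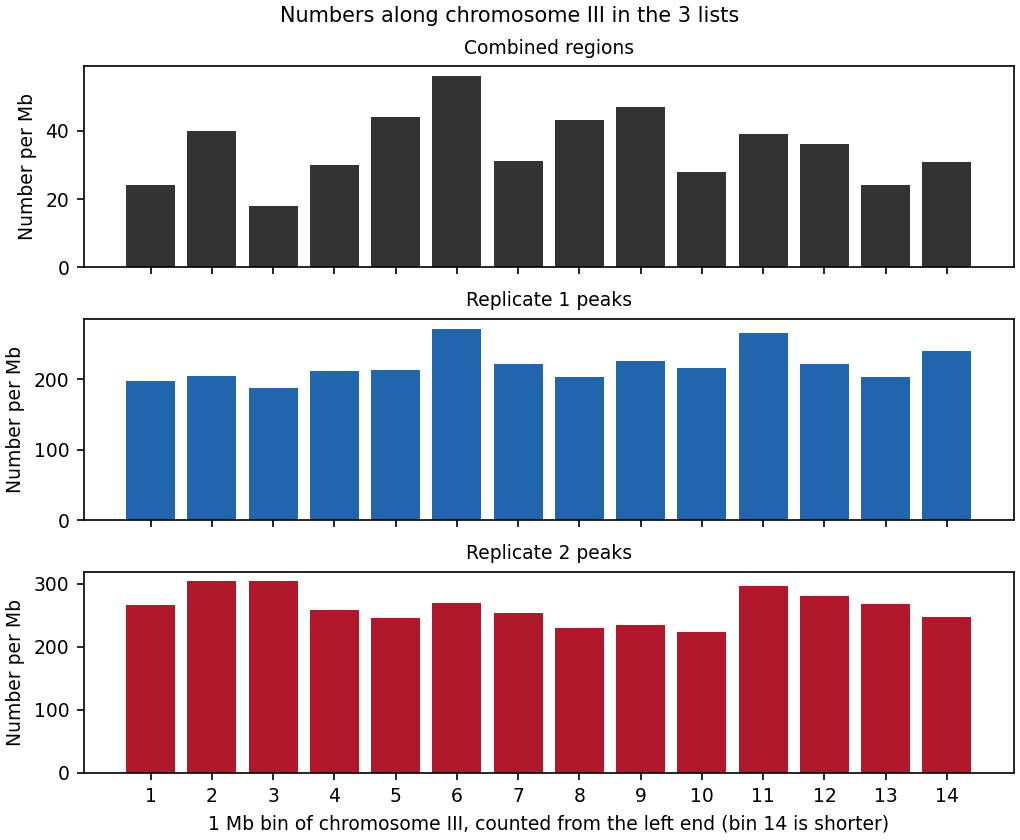
Number of combined regions (top), replicate 1 peaks (middle) and replicate 2 peaks (bottom) per Mb on the y axes, in 1 Mb bins of chromosome III counted from its left end on the x axis. Full bins hold from 18 to 56 combined regions, from 188 to 272 replicate 1 peaks and from 224 to 304 replicate 2 peaks.

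The number of members differed along the chromosome. The span, taken as the last position of any peak, was 13.8 Mb, which gives 35.1 regions per Mb, and members covered 1.12% of it. The density was 25.8 per Mb over the other 5 chromosomes together, with 6.18 on chromosome I and 28.8 to 30.7 on the others, and densities are given without a test. Chromosome I was sparse in the combined list only. Its replicate lists held 3286 and 3842 peaks over 15.1 Mb, against 3030 and 3627 over 13.8 Mb on chromosome III. The pooled 25.8 includes chromosome I. Over the 13 full bins of 1 Mb, the number of members ranged from 18 (positions 2000001 to 3000000) to 56 (5000001 to 6000000), a ratio of 3.11. Replicate 1 peaks ranged from 188 to 272 (ratio 1.45) and replicate 2 peaks from 224 to 304 (ratio 1.36). Counting error alone gives a larger ratio for smaller counts, so these ratios are not compared between lists. The bin from 5000001 to 6000000 was also the richest in replicate 1 peaks, and that from 2000001 to 3000000 the poorest, whereas in replicate 2 the latter tied with the bin before it for the most. The bin with the most members with q under 1e-05 was that from 4000001 to 5000000, with 11, and the bin from 11000001 to 12000000 had 1 of its 36. The share of members in replicate 1 was lowest in the bin from 1000001 to 2000000, at 67.5% (27 of 40). It was highest in that from 12000001 to 13000000, at 87.5% (21 of 24). The latter was also highest in replicate 2, at 45.8% of its 24 members. The bin from 1000001 to 2000000 came next there, at 45% of its 40 members. These extremes were picked from bins of few members after the values were seen, and their spread was not tested.

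Members lay more often in the middle of the chromosome. The middle 60% of the span held 326 of 484 (67.4%, interval 63.0 to 71.5, which lies above 60%), against 68.1% of the whole list within each chromosome's own middle. The difference from the other 5 chromosomes was -0.90 points (interval -5.60 to 3.58; two-sided Fisher's exact test, adjusted p = 0.707). Both the interval of 63.0 to 71.5 and this test count members that lie close together as independent. The span is set by the last peak. The left and right 20% held 76 and 82 members, so neither end stood out. On the same chromosome 62.5% of replicate 1 peaks (interval 60.7 to 64.2) and 57.6% of replicate 2 peaks (interval 56.0 to 59.2) lay in the middle. The left end held 22.3% of replicate 2 peaks (interval 20.9 to 23.7), against 15.7% of members (interval 12.6 to 19.3). This contrast was not tested.

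In windows of 100 kb the median was 3 members, and 4 of 138 windows had none. The densest window, from 5000001 to 5100000, held 13 members, of which 8 overlapped replicate 1 and 4 replicate 2. None of them had q under 1e-05, and their lowest q was 9.22e-05. The next, from 5800001 to 5900000, held 9, and 3 further windows held 8, starting at 1600001, 7100001 and 8600001. That starting at 7100001 had 3 members with q under 1e-05. The longest stretch free of members ran for 240273 bp, between III:6608374 and III:6848648.

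Neighbouring members were separated by a median of 17957 bp (quartiles 4087.5 and 40361 bp), and the smallest gap was 207 bp. Members within 1 kb of another numbered 97 of 484 (20.0%, interval 16.6 to 23.9), against 17.4% of the whole list. The difference from the other chromosomes was 3.18 points (interval -0.51 to 7.26; two-sided Fisher's exact test, p = 0.0985, adjusted p = 0.690), so it did not pass the test. These 97 formed 35 pairs and 9 groups of 3, and no larger group was found. They overlapped replicate 1 in 76.3% of cases and replicate 2 in 35.1%, and the 387 solitary members in 75.5% and 32.8%.

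The strongest group of 3 was III:13462839-13466455, close to the right end, which joins the 2 widest members to a weaker one (III:13466214-13466455, 242 bp, q = 0.00332, replicate 1 rank 1146). The group III:1923445-1926777 was led by III:1925005-1925582, and its left member, III:1923445-1924144 (700 bp, q = 1.21e-05), had the better replicate 2 rank, 894, where the leader had 6253. In III:7140212-7142485 the middle member, III:7141174-7141603 (430 bp, q = 5.11e-07), and the right one shared a replicate 2 peak of rank 553, and the left one met no peak. The groups III:6419418-6421789, III:7728536-7730502 and III:8652309-8654137 had all 3 members in replicate 1 and none in replicate 2. In the first of these, strength rose from left to right, from q = 0.00251 through 0.000200 to 1.34e-05, and the replicate 1 rank improved from 15734 through 1682 to 525. In III:11693610-11695082 all 3 met replicate 2 peaks, of ranks 18569 and 24985, whose scores of 0.0419 and 0.00562 were below the chromosome's median of 0.111.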

How the data were processed

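Formaldehyde cross-linked worms of strain OP203 were sonicated and chromatin was recovered with antibodies to GFP, per the labels' protocols. The combined list, deposited by the authors on WormBase WS220, holds a q-value for each region and gives PeakSeq as the caller, per the file headers. The replicate lists give SPP with the irreproducible discovery rate procedure, and the authors deposited a score of unstated scale with each peak. The sources used here do not give versions, thresholds, how input was used or whether replicates were pooled. As the callers differ, so may the lists for that reason alone. Comment lines record a change of build for 5 regions, 3 of them on chromosome III; the feature lines were used.

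Overlap needed 1 shared bp. Shares have exact Clopper-Pearson 95% intervals and differences between shares have Newcombe intervals. Chromosome III was compared with the other 5 nuclear chromosomes by two-sided Fisher's exact tests, with Benjamini-Hochberg adjustment over 7 comparisons. The software was SciPy 1.17.1, pandas 2.3.3, NumPy 2.4.6 and matplotlib 3.10.9 under Python 3.11.15, and the overlap and test steps were tested on simulated data. The labels name no batch and do not say whether replicates were separate cultures, so agreement between them may be technical.

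Named regions were the 20 of lowest q, the 5 widest, the 3 narrowest, the 3 weakest, the 3 strongest of those in 1 replicate alone or in neither, the 3 of best replicate 2 rank in both lists, and the 3 best ranked peaks of each replicate outside the combined list. A rule naming groups of 4 or more neighbours found none. Groups of 3, the regions within the first 1000 ranks of both lists, the bins and the windows were named after their values were seen. A planned assignment of genes needed an annotation of the same build and was not run. The members and the measures were chosen with earlier results of these data known.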

Additional observations from a re-analysis of the deposited data

How the results depend on the processing

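None of the 7 comparisons of chromosome III with the other 5 chromosomes passed the test, and none of 39 alternatives changed that (Fisher's exact test, adjusted p from 0.538 to 1). The sign of the difference, chromosome III minus the others, turned in 8 of these. With the 5000 highest ranked peaks of each replicate, the difference was 2.03 percentage points for replicate 2 and 1.35 for both. Among regions with q under 1e-05 it was 6.01 for replicate 2, 5.58 for both and 0.18 for the middle 60%. For those within 1 kb of another region that also had q under 1e-05 it was -5.997 points. That was 4 of 80 on chromosome III against 43 of 391. Neighbours of weaker q were left out there, so this is a narrower measure than the main one. Without replicate 1 the differences for both and for neither were -1.53 and 1.53, and without replicate 2 they were 2.35 and -2.35. With 1 replicate left, both and neither become the shares found and not found in that replicate. These alternatives therefore repeat the main single-replicate comparisons, which fixed their signs, and are no separate check.

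The shares on chromosome III depended on the rule for overlap. With at least 100 bp required they were 69.2% for replicate 1, 27.9% for replicate 2, 22.3% for both and 25.2% for neither. With the region's midpoint inside a peak they were 68.4%, 27.1%, 18.8% and 23.3%. With replicate 2 peaks cut to 400 bp, replicate 2 fell to 25.4% and both to 20.7%. With the 5000 highest ranked peaks the shares were 48.97%, 15.1%, 9.92% and 45.9%, a drop that follows from the shorter lists. Among regions with q under 1e-05 they were 95%, 61.3%, 57.5% and 1.25%. With 1 replicate alone, the share found ran from 33.3% (without replicate 1) to 75.6% (without replicate 2), and the share not found from 24.4% to 66.7%.

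Alternatives added after the data were seen gave a median width of 473 bp for regions with q under 1e-05 and 297 bp without regions under 50 bp, and a rho of 0.021 between strength and replicate 2 score with 100 bp of overlap. No paired analysis was possible because no list belongs to an input library. Read depth is unknown, and no statement on depth can be made.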
